A study of Mus musculus with 58 samples.

Results

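The genotype effect in fluoxetine-treated pups was read from 20 of the 58 prefrontal cortex libraries of the series, namely all 10 of heterozygous mice (HT) and all 10 of wild-type mice (WT) that received fluoxetine, and it was described across 16606 genes. The mice were of the C57BL/6J strain, and HT mice carried a KI (knock-in) allele of Tbl1xr1 beside a wild-type one; the labels do not state what the KI allele changes. HT and WT pups alike took in fluoxetine through the milk of their mothers from postnatal day 3 to day 24 and were analysed on day 25, right after these 3 weeks. Each genotype had 5 female and 5 male libraries, and both sexes were given equal weight. The rest of the series comprises HT and WT mice given lithium or vehicle.

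Depth ran from 24901988 to 31783580 reads per library in HT and from 24655357 to 33645175 in WT, within 22901678 to 35008274 over the series. Libraries are named by genotype, sex and replicate number. The labels do not say whether each library is a separate animal, and they give neither dam nor litter. The p-values therefore speak of how libraries vary, which may be technical, and litters cannot be told apart from the drug. Littermates may have been counted as independent libraries, and whether litters were spread evenly over HT and WT is not given. Values are normalised read counts, differences are HT minus WT on the log2(value + 1) scale with standard errors, and a gene is said to have risen or fallen where its adjusted p from limma was under 0.05. Cortical markers were high in every library: the summed count of 10 upper-layer neuron markers was 25765 to 29836 in HT and 22641 to 28362 in WT. Markers of neighbouring tissue varied between libraries. The summed count of 10 olfactory bulb markers exceeded 10000 in HT females 1 and 5, HT male 2 and WT males 1, 3 and 5 (1266 to 16534 over HT, 2069 to 26382 over WT). That of 11 striatal markers exceeded 10000 in HT female 4, WT female 1 and WT male 3 (6188 to 12555 over HT, 5928 to 19620 over WT).

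TBL1XR1 is a scaffold protein built of WD40 repeats. It sits in the corepressor complexes named after NCoR and SMRT, by which nuclear receptors and other transcription factors bring the histone deacetylase HDAC3 to their target genes and hold them silent. Its paralog TBL1X, encoded on the X chromosome, takes the same place in these complexes. Fluoxetine blocks the serotonin transporter, and treatment in early postnatal life reaches the cortex while its circuits are still being formed.

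Under fluoxetine 165 genes differed between HT and WT, of which 103 rose and 62 fell, or 0.994% of the genes tested (0.62% higher and 0.373% lower). The rises were small, with a median log2 difference of 0.17 and a range from 0.08 to 1.01, and the falls were larger, with a median of -0.33 and a range from -1.48 to -0.14. The genes that rose were also expressed higher, with a median of their mean counts of 2456, against 344 for those that fell. The part of this in the sizes was not tested. All 103 and all 62 had the same sign in females and in males. In 77 of the 103 and in 44 of the 62, all 10 HT libraries lay on the same side of the WT mean of their sex. The genes were chosen by the mean of both sexes in these same libraries, which favours such agreement. The shares over all genes are not given here, and no test is drawn from these counts. At an unadjusted p under 0.05 there were 3032 genes. The count depended on single libraries, being 61, 67 and 496 without HT females 2, 4 and 5, 103 without HT male 4, 83 without WT female 3 and 83 without WT female 4, and 1109, 70, 92, 350 and 26 without WT males 1, 2, 3, 4 and 5. It was also 15 in a fit of these 20 libraries alone, 39 without the libraries rich in striatal markers, 310 (251 higher, 59 lower) with each library centred on its median, 593 with weights for the libraries, 88 by edgeR and 394 by DESeq2. Of the 165, 24 genes, 12 that rose and 12 that fell, were called whichever library was left out. Only 4 of them, Tbl1xr1, Nrarp, Mex3d and Efna5, were also called in all 19 fits that changed another setting. A gene without a value in such a fit counted there as not called. There were 39 other fits, 20 of which left out 1 library and 19 of which changed another setting. All 165 kept their direction in each of these that gave them a difference. Of the called genes named here, Tbl1xr1, Tbl1x, Gm43672, Gm43674, Npas4, Btg2, Ier2, Nrarp, Mex3d, Mrap2, Amotl2, Tnip2, Csf2rb2, Neurog2, 1700016P03Rik, Efna5, Calr, Tmed10, Bcl6 and A630019I02Rik kept their call without the libraries rich in striatal markers, and the others lost it; the calls of Gm15663 and Spats2l in these fits are not given here. In the fit of these 20 libraries alone, those that kept it were Tbl1xr1, Tbl1x, Gm43672, Gm43674, Nrarp, Mex3d, Amotl2, Efna5, Ntm, Gem, Tmem215 and A630019I02Rik. Without the libraries rich in olfactory bulb markers, Tbl1x, Ier2, Gem, 1700016P03Rik, Amotl2, Serpinb6b, Rab11fip1, Socs3, Tmem215, Ldb2, Ccl9, Adgrd1, Pak7, Fam19a1, Hs3st2, Epha4, Pdzrn3, Ntm, Opcml, Cdh10 and Lrrtm3 lost it.

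**Figure D1:**
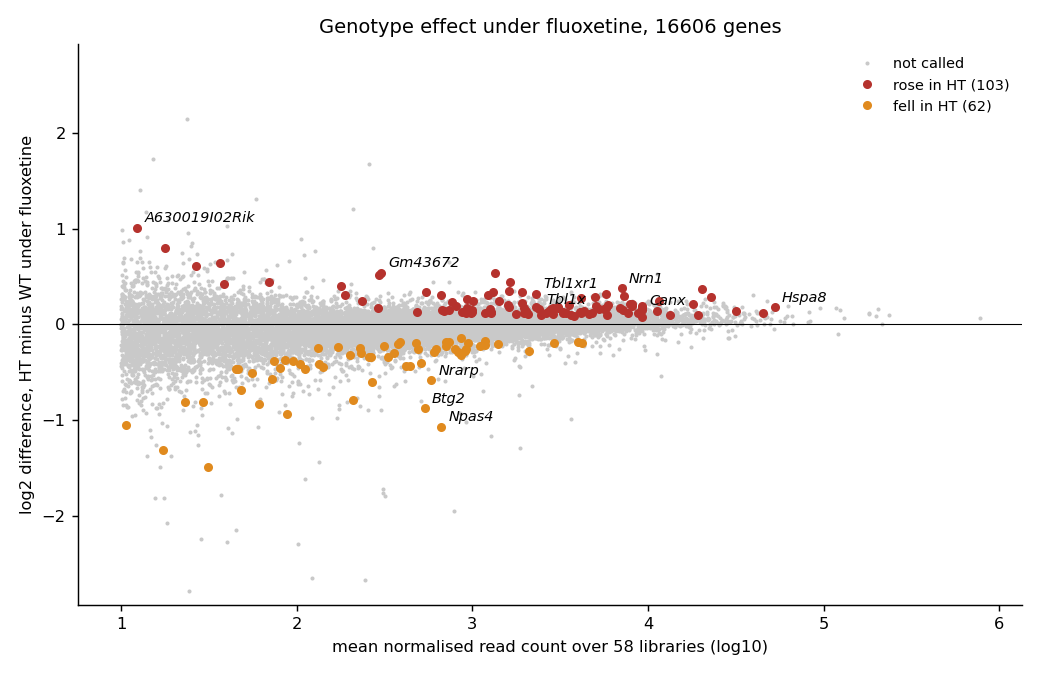
Log2 difference, HT minus WT under fluoxetine (y axis), against the mean normalised read count over 58 libraries on a log10 scale (x axis) for 16606 genes, each point 1 gene. Genes that rose in HT (red, 103) spread over the range of expression with mostly small differences, while genes that fell (orange, 62) reach down to -1.48.

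**Figure D2:**
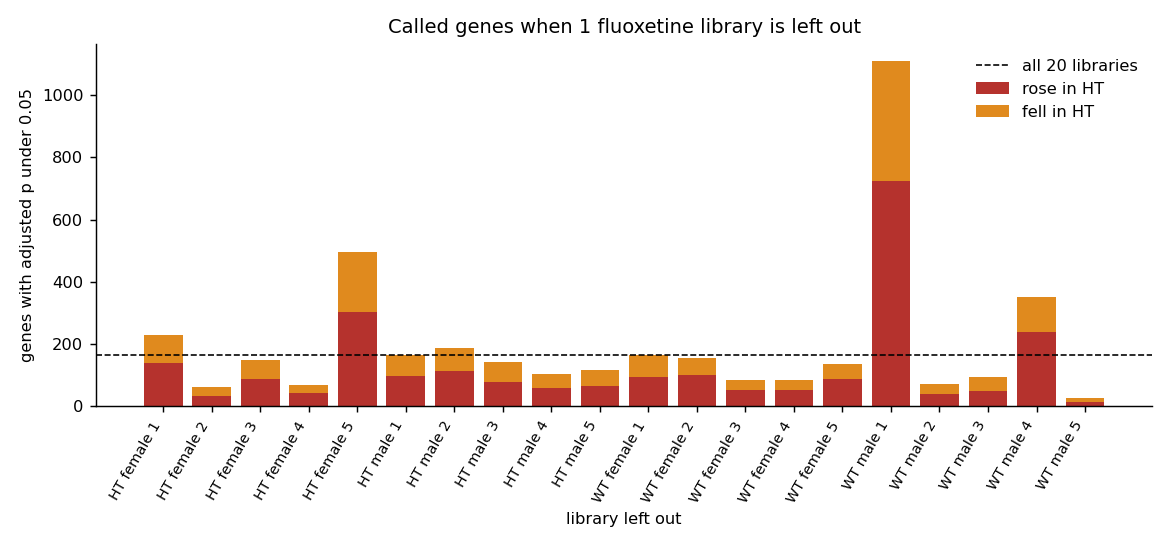
Number of genes with an adjusted p under 0.05 (y axis) when each fluoxetine library in turn was left out (x axis), split into genes that rose (red) and fell (orange) in HT. The dashed line marks the 165 genes called with all 20 libraries; the bars run from 26 without WT male 5 to 1109 without WT male 1.

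The gene that carries the knock-in allele and a noncoding RNA at its start had the smallest p-values. Tbl1xr1 (ENSMUSG00000027630, chromosome 3, 22076652 to 22216594, plus strand, GRCm38) had counts of 2276, 2683, 2435, 2484 and 2438 in HT females and 2435, 2361, 2658, 2692 and 2584 in HT males, against 1817, 2125, 1907, 2002 and 1880 in WT females and 2212, 2225, 1902, 2189 and 1833 in WT males. Every HT library lay above every WT library. The rise was 0.32 ± 0.034, or 1.25-fold (limma adjusted p = 1.23e-08), and it was of like size in females (0.34) and males (0.30). Reads of the knock-in and the wild-type allele were not told apart here.

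Gm43672 (ENSMUSG00000106019, chromosome 3, 22074412 to 22076142, minus strand) is a long intergenic noncoding RNA that starts 510 bases from the first base of Tbl1xr1 and runs away from it. Its counts were 347, 341, 342, 361 and 386 in HT females and 328, 367, 390, 432 and 410 in HT males, against 233, 291, 283, 265 and 286 in WT females and 238, 265, 226, 257 and 209 in WT males. The groups did not overlap. The rise was 0.54 ± 0.061, or 1.45-fold (limma adjusted p = 7.73e-08). A further noncoding RNA on the minus strand, Gm43674 (ENSMUSG00000106321, 21997678 to 21998468), starts 78.2 kb upstream of Tbl1xr1 and was named after its values were seen. It had a lowest count of 37.2, a median of 50.7 and a highest of 59.2 in HT, against 21.5, 31.8 and 34.8 in WT. These groups did not overlap either, and the rise was 0.64 ± 0.11 (limma adjusted p = 0.00181). Among the 16 genes tested within 3 Mb of Tbl1xr1, these 3 passed the test. The promoter window of Tbl1xr1, RefSeq on GRCm38.p6, chr3:22076402-22076701, plus strand, is shown because it holds the start of Tbl1xr1 and part of the gap to the start of Gm43672. The capital marks the annotated first base of Tbl1xr1.
Tbl1xr1: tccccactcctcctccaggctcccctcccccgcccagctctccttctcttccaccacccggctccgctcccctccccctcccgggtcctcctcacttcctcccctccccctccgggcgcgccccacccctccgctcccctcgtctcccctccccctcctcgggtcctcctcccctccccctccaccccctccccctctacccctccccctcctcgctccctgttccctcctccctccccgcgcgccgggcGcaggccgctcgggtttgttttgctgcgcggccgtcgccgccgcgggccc

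Tbl1x (ENSMUSG00000025246, chromosome X, 77511013 to 77662983, plus strand) had counts of 2549, 2457, 2578, 2217 and 2600 in HT females and 2508, 2622, 2611, 2531 and 2583 in HT males, against 2285, 2240, 2184, 2131 and 2073 in WT females and 2319, 2361, 2310, 2309 and 2429 in WT males. All but HT female 4 lay above the WT libraries of their sex. The rise was 0.16 ± 0.030, or 1.12-fold (limma adjusted p = 0.0071). Without the 6 libraries rich in olfactory bulb markers its adjusted p was 0.0628. No other subunit or partner of the complexes passed the test. Of 12 members on the list, 2 rose (0.62% over all genes) and none fell. On this list 6 lay above 0 (48.6% over all genes) and 6 below. The uncalled members ran from -0.16 ± 0.055 for the histone deacetylase Hdac5 to 0.09 ± 0.053 for Hdac4 (limma adjusted p = 0.0967 and 0.345). None of 20 nuclear receptors that bind the complexes passed. Of 15 thyroid hormone response genes, which are textbook targets of these corepressors, 1 passed (0.994% over all genes). It was Klf9, a Krüppel-like transcription factor, which had a median count of 8693 in HT and 7595 in WT, in overlapping groups, and rose by 0.20 ± 0.050 (limma adjusted p = 0.0383; called in 10 of 20 fits that left out a library).

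**Figure D3:**
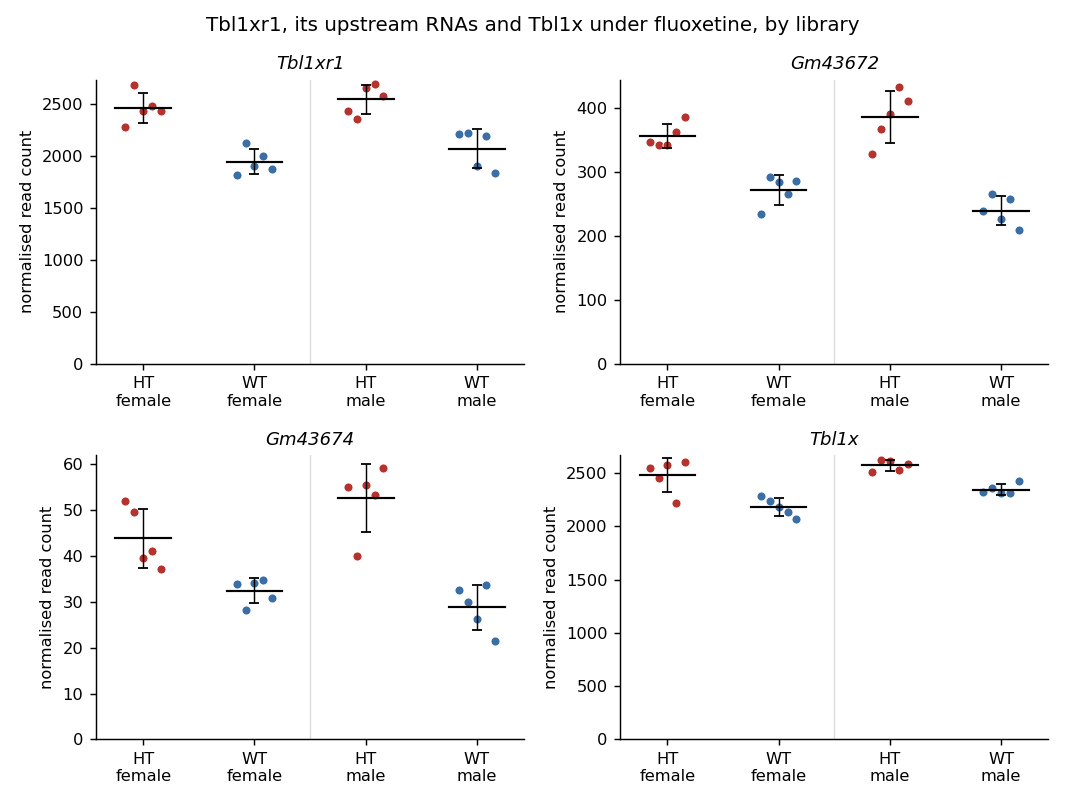
Normalised read count (y axis, from 0) of Tbl1xr1, Gm43672, Gm43674 and Tbl1x in HT and WT libraries under fluoxetine, females left and males right in each panel. Points are libraries, bars the mean and SD of 5; for the first 3 genes the lowest HT library lies above the highest WT library.

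Genes that neurons switch on within minutes of activity were among the falls. Npas4 (ENSMUSG00000045903), a transcription factor induced by calcium entry that shapes inhibitory synapses, had counts of 329, 347, 326, 290 and 835 in HT females and 358, 322, 371, 294 and 224 in HT males, against 453, 836, 1118, 864 and 847 in WT females and 382, 398, 676, 943 and 1387 in WT males. Apart from HT female 5, the HT libraries lay below all WT libraries. Npas4 fell by 1.07 ± 0.20 on the log2 scale (limma adjusted p = 0.00562; adjusted p = 0.0776 in the fit of these 20 libraries alone). Btg2 (ENSMUSG00000020423), an antiproliferative gene of the early response, had a lowest count of 247, a median of 295 and a highest of 454 in HT, against 288, 643 and 1210 in WT. The groups overlapped, with WT males 1 and 2 and WT female 1 among the HT values. Btg2 fell by 0.88 ± 0.18 (limma adjusted p = 0.0119; not called without WT male 5 or in the fit of these 20 libraries alone).

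Ier2, an early transcriptional regulator, had 74.8, 123 and 172 as lowest, median and highest count in HT, against 108, 224 and 496 in WT, and fell by 0.78 ± 0.20 (limma adjusted p = 0.0397; called in 10 of 20 fits that left out a library). Gem, a small GTPase that restrains calcium channels and is not on the list, had 22.8, 40.7 and 58.4 in HT, against 48.1, 67.4 and 108 in WT. Its fall was 0.83 ± 0.20 (limma adjusted p = 0.0235; not called without HT female 2 or without WT male 5). Of the 20 immediate early genes measured, 3 fell (0.373% over all genes), none rose and 7 lay above 0 (48.6% over all genes). An unadjusted p under 0.05 was reached by 13 of the 20 (3032 of 16606 over all genes). The median log2 difference of the list was -0.44, with -0.24 in females and -0.59 in males, against -0.0038 over all genes. Without the 6 libraries rich in olfactory bulb markers the list median was -0.17.

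The largest fall among the genes called was that of 1700016P03Rik (ENSMUSG00000085609), the host transcript of the microRNAs miR-212 and miR-132, which CREB switches on in active neurons. It was named after its values were seen. Its counts were low, at 20.5, 12.1, 10.4, 6.1 and 13.8 in HT females and 9.6, 6.9, 6.7, 13.9 and 8.6 in HT males, against 16.9, 28.3, 35.2, 33.9 and 51.5 in WT females and 18.7, 9.3, 25.1, 48.2 and 98.8 in WT males. WT male 2, WT female 1 and WT male 1 lay within the HT range. It fell by 1.48 ± 0.33 (limma adjusted p = 0.016; not called without WT male 5, without the libraries rich in olfactory bulb markers, or in the fit of these 20 libraries alone).

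The classical members Fos and Arc were named for reference after their values were seen, and they did not pass. Arc, which acts in the endocytosis of glutamate receptors, had a median count of 1390 in HT (616 to 2718) and 2817 in WT (629 to 5246), a difference of -0.99 ± 0.38 (limma adjusted p = 0.141). Fos had a median of 561 in HT (189 to 766) and 820 in WT (176 to 2176), a difference of -0.93 ± 0.34 (limma adjusted p = 0.13). The spread within groups was wide: WT male 2 had a normalised count of 629 for Arc and WT male 5 had 5246. Homer1, a postsynaptic scaffold, and Bdnf, a neurotrophin, lay on the other side of 0 at 0.40 ± 0.15 and 0.34 ± 0.11 and did not pass either (limma adjusted p = 0.134 and 0.0889).

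The promoter windows of Npas4 (chr19:4989922-4990221, minus strand) and Btg2 (chr1:134079106-134079405, minus strand), RefSeq on GRCm38.p6, are shown because these had the largest falls among the called members of the list. Capitals mark TGACG on either strand, the core of the cAMP response element, whose full form TGACGTCA contains the core on both strands.
Npas4: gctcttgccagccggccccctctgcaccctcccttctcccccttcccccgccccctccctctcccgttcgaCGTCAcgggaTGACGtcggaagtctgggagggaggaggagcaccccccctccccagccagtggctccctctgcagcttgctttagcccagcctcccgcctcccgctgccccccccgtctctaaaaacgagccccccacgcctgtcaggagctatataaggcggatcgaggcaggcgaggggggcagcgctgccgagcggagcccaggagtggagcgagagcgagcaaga
Btg2: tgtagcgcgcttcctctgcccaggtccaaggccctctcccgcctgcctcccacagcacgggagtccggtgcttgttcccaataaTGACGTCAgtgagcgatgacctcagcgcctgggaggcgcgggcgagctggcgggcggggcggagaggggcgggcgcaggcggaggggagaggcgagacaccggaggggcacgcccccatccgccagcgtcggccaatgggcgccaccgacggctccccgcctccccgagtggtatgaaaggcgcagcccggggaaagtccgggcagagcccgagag
TGACG occurs in 16 of the 26 windows of immediate early genes in RefSeq's table (61.5%), against 28.9% of the windows of the genes tested and 20.8% of all 32817 windows. By gene it is in 14 of 15, against 4035 of the 12064 genes tested that have a window. Among the genes called, TGACG is in 25.5% of the 47 windows of those that fell and in 39.8% of the 108 windows of those that rose. The full element is in 2 of the 26 windows (7.69%), against 2.82% of the windows of the genes tested and 1.79% of all; Npas4 holds the core at 2 places and Btg2 the full element once. These matches are letters in a window, and binding was not measured.

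Nrarp and Hes5, a pair of genes switched on by Notch, fell. Notch receptors, when bound by ligands on neighbouring cells, release a fragment that acts with RBPJ to switch on the Hes and Hey repressors and the feedback gene Nrarp. Nrarp (ENSMUSG00000078202) had counts of 431, 407, 366, 451 and 679 in HT females and 365, 638, 449, 495 and 449 in HT males, against 634, 634, 575, 675 and 732 in WT females and 627, 781, 741, 750 and 829 in WT males. HT female 5 and HT male 2 lay among the WT values and the other HT libraries below them. Nrarp fell by 0.58 ± 0.10 (limma adjusted p = 0.00181) and was called in every fit that left out a library. Hes5 (ENSMUSG00000048001), a repressor that keeps neural progenitors undifferentiated and is also made by astrocytes, had 209, 156, 194, 252 and 316 in HT females and 236, 364, 282, 229 and 190 in HT males, against 338, 355, 327, 405 and 491 in WT females and 332, 390, 358, 256 and 384 in WT males. HT female 5 and HT males 2 and 3 lay among the WT values, HT female 5 and HT male 3 above WT male 4 alone. Hes5 fell by 0.60 ± 0.14 (limma adjusted p = 0.0206; not called without HT female 2 or without WT male 5).

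Of 17 Notch pathway genes measured, 2 fell (0.373% over all genes), none rose and 2 lay above 0 (48.6% over all genes), with a median of -0.17. The receptor Notch1 had a median count of 812 in HT and 878 in WT and a difference of -0.17 ± 0.055 that did not pass (limma adjusted p = 0.0795). None of 13 astrocyte markers passed, and their median was 0.02, with a summed count of 178375 to 215069 in HT and 176908 to 232668 in WT. In bulk tissue, fewer cells of a type and less RNA per cell cannot be told apart. Neurog2, a proneural transcription factor named after its values were seen, had a median count of 22.6 in HT (14.3 to 32.0) and 38.4 in WT (23.3 to 58.9) and fell by 0.81 ± 0.19 (limma adjusted p = 0.0235). The promoter window of Hes5 (chr4:154960673-154960972, plus strand) is shown because it holds the RBPJ core GTGGGAA, sought on both strands and marked by capitals, at 2 places.
Hes5: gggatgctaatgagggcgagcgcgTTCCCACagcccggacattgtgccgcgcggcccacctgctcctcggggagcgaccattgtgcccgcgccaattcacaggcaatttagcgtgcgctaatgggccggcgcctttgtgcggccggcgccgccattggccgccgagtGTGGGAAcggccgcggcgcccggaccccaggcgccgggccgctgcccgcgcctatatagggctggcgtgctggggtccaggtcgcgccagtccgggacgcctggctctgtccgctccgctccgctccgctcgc
This core is in 3 of the 15 windows of Notch pathway genes (20%), against 6.30% of the windows of the genes tested and 6.39% of all. It is in 8.51% of the 47 windows of the genes that fell and in 4.63% of the 108 of those that rose. The Nrarp window holds none.

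**Figure D4:**
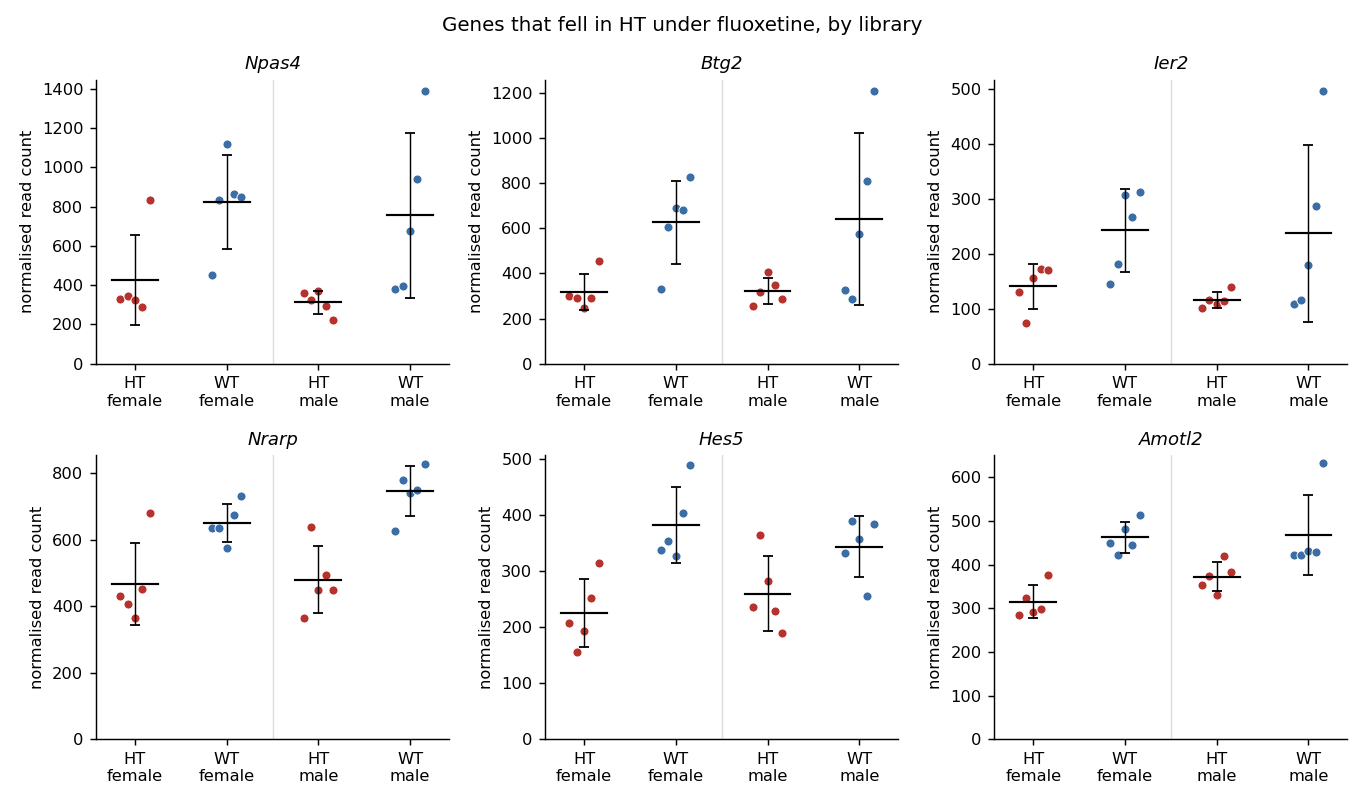
Normalised read count (y axis, from 0) of 6 genes that fell in HT under fluoxetine, by library, females left and males right in each panel, with mean and SD of 5. In Npas4 and Btg2 the WT males spread from 382 to 1387 and from 288 to 1210, while in Amotl2 every HT library lies below every WT library.

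The next genes that fell are on none of the lists. Amotl2 (ENSMUSG00000032531), which holds the Hippo effector YAP at cell junctions, had a lowest count of 284, a median of 343 and a highest of 421 in HT, against 422, 438 and 632 in WT. Its groups did not overlap, which among all genes was the case for 5, or 0.0301%. Amotl2 fell by 0.44 ± 0.088 (limma adjusted p = 0.00933; adjusted p = 0.0505 without the 6 libraries rich in olfactory bulb markers). Mex3d, an RNA-binding protein, had 310, 342 and 444 in HT, against 398, 473 and 632 in WT, and fell by 0.44 ± 0.080 (limma adjusted p = 0.00465). Mrap2, an accessory protein of melanocortin receptors, had 89.1, 105 and 123 in HT, against 102, 144 and 198 in WT, and fell by 0.47 ± 0.10 (limma adjusted p = 0.0179). Mex3d was called in all 39 other fits. Mrap2 lost its call in the fit of these 20 libraries alone (adjusted p = 0.0848), and DESeq2 gave it no adjusted p.

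Csf2rb2, Tnip2 and Socs3 were named after their values were seen. Csf2rb2, the mouse receptor subunit for interleukin 3, had a median count of 13.3 in HT (8.65 to 25.1) and 26.3 in WT (21.0 to 42.2) and fell by 0.81 ± 0.17 (limma adjusted p = 0.00963). Tnip2, an inhibitor of NF-kappaB signalling, had 232 in HT (204 to 299) and 316 in WT (238 to 351) and fell by 0.34 ± 0.066 (limma adjusted p = 0.00713). Socs3, which shuts off cytokine receptors, had 71.6 in HT (49.1 to 103) and 94.3 in WT (79.9 to 120) and fell by 0.38 ± 0.10 (limma adjusted p = 0.0442; called in 9 of 20 fits that left out a library). None of 14 microglia markers passed, with a median of 0.01 and a summed count of 12462 to 16121 in HT and 12287 to 16740 in WT. The remaining falls named by rule were Serpinb6b, a serpin protease inhibitor, at -0.51 ± 0.12, Rab11fip1, a Rab11 effector of recycling endosomes, at -0.46 ± 0.12, and Adamts6, a secreted metalloprotease, at -0.45 ± 0.12 (limma adjusted p = 0.0231, 0.0405 and 0.0453).

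Calr, Canx, Hsp90b1 and Pdia3, which serve protein folding in the endoplasmic reticulum, rose in HT. The chaperones and isomerases of the endoplasmic reticulum fold secreted and membrane proteins and are raised together in the unfolded protein response. Calr (ENSMUSG00000003814), a calcium-binding lectin chaperone, had counts of 10621, 11175, 10579, 11321 and 8308 in HT females and 8846, 8233, 8053, 8062 and 7920 in HT males, against 10031, 7601, 7712, 7928 and 8112 in WT females and 9449, 7816, 7460, 7737 and 7223 in WT males. HT females 1 to 4 lay above all WT libraries, and the other HT libraries lay among the WT values. Calr rose by 0.19 ± 0.047 (limma adjusted p = 0.031). Its membrane-bound relative Canx rose by 0.15 ± 0.037, the chaperone Hsp90b1 by 0.17 ± 0.042 and the disulfide isomerase Pdia3 by 0.16 ± 0.034 (limma adjusted p = 0.031, 0.0336 and 0.014). HT and WT values overlapped for all 4. Pdia3 was called in 19 of 20 fits that left out a library (not without WT male 5), and Calr, Canx and Hsp90b1 were called in 11, 11 and 10.

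Of the 17 unfolded protein response genes measured, 4 rose (0.62% over all genes), none fell and all lay above 0 (48.6% over all genes). Their median was 0.15, with 0.25 in females, where 6 rose, and 0.03 in males, where none passed. The difference between the sexes was not called for any of them. Their summed count was 70333, 74651, 68520, 75111 and 56762 in HT females and 61052, 57222, 56291, 58365 and 56004 in HT males, against 65661, 54749, 53831, 55908 and 55116 in WT females and 66888, 53912, 53334, 56051 and 50501 in WT males. HT females 1 to 4 were the highest, followed by WT male 1 and WT female 1. Hspa5, the master chaperone BiP, was named after its values were seen. It had a median of 7116 in HT (5342 to 10784) and 5916 in WT (5491 to 9179), and its difference of 0.22 ± 0.089 did not pass (limma adjusted p = 0.168).

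The endoplasmic reticulum stress element, searched on both strands as CCAAT and CCACG with any 9 bases between them, is in 7 of the 15 windows of unfolded protein response genes (46.7%), against 0.129% of the windows of the genes tested and 0.119% of all. It is in 4 of the 108 windows of the genes that rose (3.70%), those of Calr, Canx, Hsp90b1 and Spats2l. The Pdia3 window holds none. The windows of Canx (chr11:50325624-50325923, minus strand), Calr (chr8:84846882-84847181, minus strand) and Hsp90b1 (chr10:86705395-86705694, minus strand) are shown with the element in capitals, 1 place in Canx, 1 in Calr and 2 in Hsp90b1.
Canx: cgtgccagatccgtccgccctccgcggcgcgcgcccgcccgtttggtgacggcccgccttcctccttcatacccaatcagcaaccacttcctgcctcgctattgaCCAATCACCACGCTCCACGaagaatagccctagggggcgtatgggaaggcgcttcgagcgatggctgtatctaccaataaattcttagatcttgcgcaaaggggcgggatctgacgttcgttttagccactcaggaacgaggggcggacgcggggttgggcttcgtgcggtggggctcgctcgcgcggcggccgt
Calr: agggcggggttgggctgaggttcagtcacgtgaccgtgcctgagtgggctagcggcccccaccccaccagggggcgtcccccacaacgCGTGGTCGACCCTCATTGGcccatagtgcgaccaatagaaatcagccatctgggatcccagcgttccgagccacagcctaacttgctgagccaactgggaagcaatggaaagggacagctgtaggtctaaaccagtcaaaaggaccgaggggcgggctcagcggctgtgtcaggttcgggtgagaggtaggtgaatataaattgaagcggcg
Hsp90b1: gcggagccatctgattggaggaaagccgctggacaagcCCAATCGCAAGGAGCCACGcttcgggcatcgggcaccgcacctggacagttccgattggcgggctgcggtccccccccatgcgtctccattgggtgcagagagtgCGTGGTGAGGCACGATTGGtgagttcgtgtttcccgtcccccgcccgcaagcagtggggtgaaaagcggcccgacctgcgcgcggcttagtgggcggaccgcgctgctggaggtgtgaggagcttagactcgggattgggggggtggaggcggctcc

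Among chaperones of the cytosol, Hspa8 and Hsp90aa1 rose. Hspa8, the constitutive HSP70, had a median count of 52952 in HT (49292 to 63069) and 49640 in WT (39656 to 55639) and rose by 0.18 ± 0.047 (limma adjusted p = 0.0442). Hsp90aa1 had 33074 in HT (31238 to 36587) and 29928 in WT (27102 to 35266) and rose by 0.14 ± 0.038 (limma adjusted p = 0.0437). Both pairs of groups overlapped, and these genes were called in 5 and 6 of 20 fits that left out a library. Of 15 heat shock chaperones, 2 rose (0.62% over all genes), none fell and 11 lay above 0 (48.6% over all genes), with a median of 0.10. The nucleotide exchange factor Hsph1 had 0.25 ± 0.069 without passing (limma adjusted p = 0.0564). Their partners Stip1, which bridges HSP70 and HSP90, and the J proteins Dnaja2 and Dnajb6 were named after their values were seen and rose by 0.13 ± 0.033, 0.12 ± 0.029 and 0.11 ± 0.028 (limma adjusted p = 0.0391, 0.0294 and 0.0352). Tmed10, a cargo receptor of vesicles between endoplasmic reticulum and Golgi, also named afterwards, had 3773 in HT (3587 to 3917) and 3496 in WT (3385 to 3795). It rose by 0.10 ± 0.020 (limma adjusted p = 0.00713) and was called whichever library was left out.

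**Figure D5:**
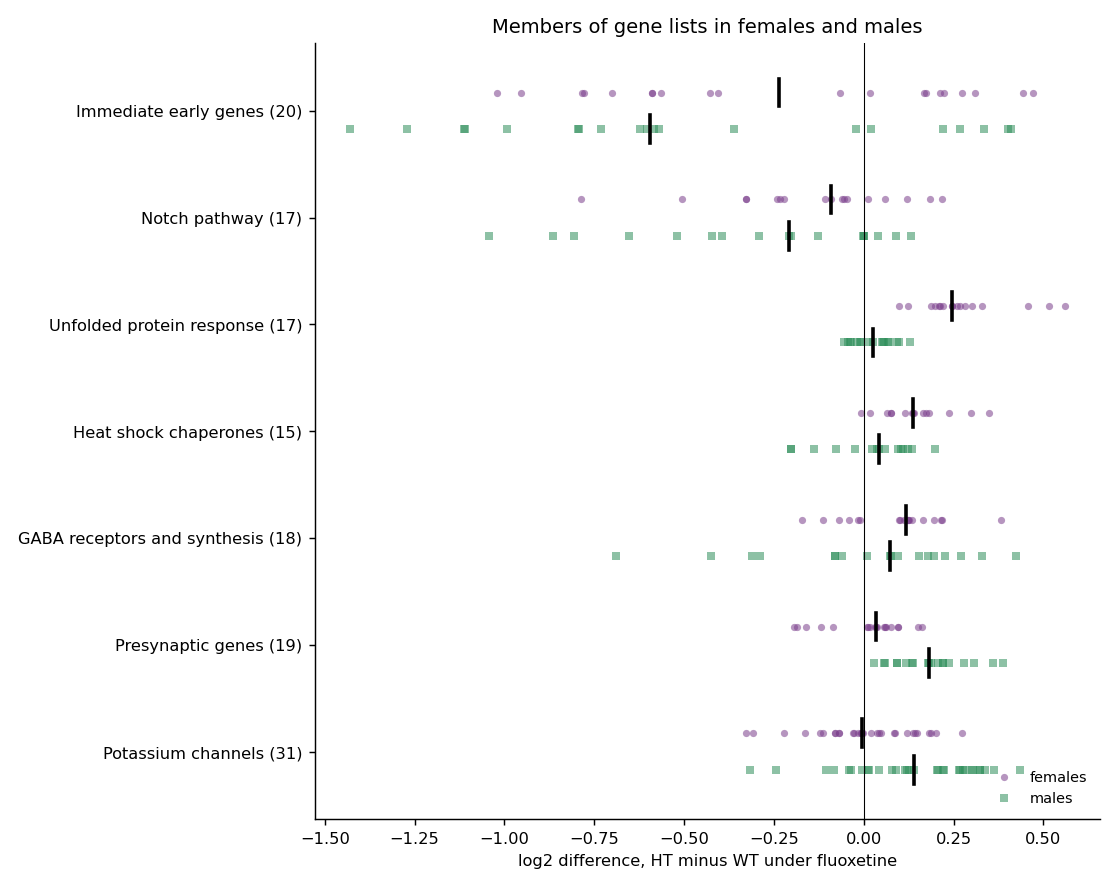
Log2 difference, HT minus WT under fluoxetine (x axis), of each measured member of 7 gene lists (rows, number of members in brackets), in females (circles) and males (squares). Black bars are medians; those of the unfolded protein response are 0.25 in females and 0.03 in males, and those of the immediate early genes -0.24 and -0.59.

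Efna5 (ENSMUSG00000048915), the ligand ephrin-A5 that repels growing axons, had a lowest count of 485, a median of 582 and a highest of 695 in HT, against 406, 452 and 551 in WT. The groups overlapped. Efna5 rose by 0.34 ± 0.068 (limma adjusted p = 0.00868) and was called in all 39 other fits. Its receptor family member Epha4 had a median of 6050 in HT and 5418 in WT and rose by 0.32 ± 0.086 (limma adjusted p = 0.0491; called in 6 of 20 fits that left out a library). Ntm (ENSMUSG00000059974), the IgLON adhesion protein neurotrimin, had 8297, 8550 and 9229 in HT, against 6749, 7550 and 8132 in WT. Every HT library lay above every WT library, and Ntm rose by 0.21 ± 0.042 (limma adjusted p = 0.00933). It lost its call without the libraries rich in olfactory bulb markers and without those rich in striatal markers (highest adjusted p = 0.0664).

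Genes of 3 further adhesion proteins were named after their values were seen. The IgLON protein Opcml rose by 0.21 ± 0.055, the cadherin Cdh10 by 0.23 ± 0.056 and the synapse organiser Lrrtm3 by 0.24 ± 0.054 (limma adjusted p = 0.0436, 0.0319 and 0.0188). No list of adhesion genes was drawn up, so this number stands against no total. Atxn1, the gene of a spinocerebellar ataxia, encodes a partner of the repressor capicua. It had a median of 3001 in HT (2682 to 3156) and 2645 in WT (2354 to 2844) and rose by 0.17 ± 0.034 (limma adjusted p = 0.00933), whichever library was left out. Bcl6, a repressor that itself recruits NCoR and SMRT, had 1012 in HT (882 to 1287) and 835 in WT (746 to 1098) and rose by 0.26 ± 0.057 (limma adjusted p = 0.0149). Both genes had overlapping groups and were named after their values were seen.

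Nrn1 (ENSMUSG00000039114), the activity-regulated growth factor neuritin, had counts of 7420, 8458, 8735, 8194 and 7015 in HT females and 8694, 7040, 7333, 8130 and 7547 in HT males, against 5689, 6411, 5797, 6372 and 6654 in WT females and 7626, 6320, 4785, 6801 and 4584 in WT males. Only WT male 1 reached the HT values. Nrn1 rose by 0.38 ± 0.081, or 1.30-fold (limma adjusted p = 0.014), and lost its call without WT male 5. Tmem215, a membrane protein of the endoplasmic reticulum, had 266, 349 and 388 in HT, against 169, 261 and 307 in WT, and rose by 0.52 ± 0.11 (limma adjusted p = 0.0149; not called without WT male 5). The transcriptional cofactor Ldb2 rose by 0.45 ± 0.11, the actin-binding Enc1 by 0.37 ± 0.099, the kinase Pak7 by 0.35 ± 0.091 and the secreted Fam19a1 by 0.34 ± 0.087 (limma adjusted p = 0.0294, 0.0462, 0.0412 and 0.0397). The heparan sulfate enzyme Hs3st2 rose by 0.33 ± 0.085 and the ubiquitin ligase Pdzrn3 by 0.31 ± 0.077 (limma adjusted p = 0.0391 and 0.0336). Of these, Ldb2 was called in 13 of 20 fits that left out a library and Pak7 in 6. The chemokine Ccl9 and the adhesion receptor Adgrd1 rose by 0.44 ± 0.11 and 0.40 ± 0.10 (limma adjusted p = 0.0294 and 0.0437). None of 10 upper-layer and 12 deep-layer neuron markers passed, with medians of 0.03 and -0.03.

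Rgs4, which shortens G protein signals, and the protein kinase A subunits Prkacb and Prkar1a were named after their values were seen. Rgs4 had 24848 in HT (21893 to 25569) and 21344 in WT (16487 to 22761) and rose by 0.29 ± 0.062 (limma adjusted p = 0.014). Prkacb, the catalytic beta subunit, had 19482 in HT (17915 to 20291) and 16873 in WT (13998 to 18580) and rose by 0.21 ± 0.046 (limma adjusted p = 0.014). Prkar1a, a regulatory subunit, rose by 0.10 ± 0.024 (limma adjusted p = 0.0312).

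The GABA-A receptor subunit gene Gabra3 had 0.15 ± 0.043 and did not pass (limma adjusted p = 0.0564). None of 15 interneuron markers passed, and their median was 0.07.

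All 19 presynaptic genes lay above 0 (48.6% over all genes) with a median of 0.08, and none passed. An unadjusted p under 0.05 was reached by 9 of the 19 (3032 of 16606 over all genes). The vesicle fusion protein Snap25 was at 0.19 ± 0.057 (limma adjusted p = 0.0694). In females 14 of the 19 lay above 0 (48.7% over all genes), with a median of 0.04. In males all 19 did (50.7% over all genes), with a median of 0.18. The summed count of the presynaptic list was 417263 to 470047 in HT and 339069 to 445858 in WT. The lowest WT libraries, WT males 5 and 3, were also those with the highest counts of olfactory bulb markers. The list median was 0.05 to 0.14 in the 19 other settings, and the part of the olfactory bulb markers in the result was not tested. With vehicle all 19 presynaptic genes also lay above 0, with a median of 0.06. With lithium 10 did, with a median of 0.0021. Of 31 potassium channel genes, 1 fell (0.373% over all genes), none rose and 25 lay above 0 (48.6% over all genes). Within the sexes, 14 lay above 0 in females (48.7% over all genes) and 24 in males (50.7% over all genes). The gene that fell was Kcnt1, a sodium-activated channel, with 4087 in HT (3415 to 4570) and 4692 in WT (3616 to 4850). Its fall was 0.20 ± 0.048 (limma adjusted p = 0.0294). None of 26 calcium and sodium channel genes, 20 genes of glutamate receptors and the postsynaptic density, or 15 serotonin genes passed. The serotonin receptor Htr2a was at 0.35 ± 0.098 (limma adjusted p = 0.0557).

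No list of cell type markers had a called member, in either direction. The olfactory bulb list was the farthest from 0, with a median of -1.01, at 0.44 in females and -2.36 in males, where WT held more of the rich libraries. Its median was also below 0 with vehicle, at -1.03, and with lithium, at -0.96. Without the 6 rich libraries 169 genes were called, of which 82 were among the 165. With the mean log2 values of the olfactory bulb and the striatal markers as covariates 151 were called. Lists on which none passed included 15 glucocorticoid genes, where the receptor Nr3c1 was at 0.19 ± 0.061, and 18 clock genes, where the output factor Hlf was at 0.23 ± 0.063 (limma adjusted p = 0.0802 and 0.0512). None of 13 mitochondrially encoded mRNAs, 81 oxidative phosphorylation genes or 81 ribosomal protein genes passed either.

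The effect was also read within each sex. In females 248 genes passed, 132 higher (0.795%) and 116 lower (0.699%) in HT, or 1.49% of those tested (106 higher and 143 lower with upper-quartile scaling). This count rested on single libraries: it was 96, 1, 390, 3 and 547 without HT females 1 to 5, and 123, 1, 1 and 1 without WT females 2 to 5. In males 4 genes passed, or 0.0241%, all of them higher in HT, with 2553 at an unadjusted p under 0.05. They were Tbl1xr1, Gm43672, Gm43674 and A630019I02Rik, a low-count RNA annotated as antisense, which was named after its values were seen. Its counts were 15.6, 18.3, 22.2, 12.7 and 18.3 in HT males, against 5.8, 4.1, 5.5, 3.4 and 5.4 in WT males, and these did not overlap. Its male difference was 1.66 (limma adjusted p = 0.00507), and its female difference of 0.36 did not pass. Whether the counting used strand is not given, so reads of its sense partner cannot be told apart. The male count was 44 without HT male 2, and 12 and 107 without WT males 1 and 4. Of the 103 genes that rose and the 62 that fell over both sexes, 37 and 26 passed in females and 4 and 0 in males.

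A test of the difference itself, the female effect minus the male effect, called 3 genes, or 0.0181% of those tested. Wdfy4, which serves cross-presentation in dendritic cells, had 105, 96.8, 111, 85.0 and 119 in HT females, against 140, 144, 133, 147 and 133 in WT females, and 159, 133, 134, 152 and 159 in HT males, against 94.4, 122, 105, 93.0 and 94.5 in WT males. HT was below WT in all females and above WT in all males, with a difference of -0.97 (limma adjusted p = 0.018). The zinc finger gene Zfp760 went the other way, at 0.18 in females and -0.30 in males, and the kinase gene Cdc42bpb was at -0.17 and 0.11 (limma adjusted p = 0.0394 for each difference). The count fell to 0 without HT females 2 or 4, HT males 4 or 5, WT female 4 or WT males 1 or 5, was 1 without HT female 1, WT females 3 or 5 or WT male 2, and was 22, 22, 48 and 10 without HT female 3, HT male 2, WT female 1 and WT male 4.

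The same contrast in other mice of the series shows where the fluoxetine effect stands. In vehicle-treated mice 3 genes passed (0.0181%), all higher in HT, namely Tbl1xr1 at 0.29, Gm43672 at 0.40 and Tbl1x at 0.18. In lithium-treated mice 2 passed (0.012%), Tbl1xr1 at 0.26 and Gm43672 at 0.50. Gm43674 was at 0.46 with vehicle and 0.31 with lithium without passing (limma adjusted p = 0.193 and 0.831). Of the 103 genes that rose under fluoxetine, 99 were above 0 with vehicle and 55 with lithium, and their medians were 0.05 and 0.0014. Of the 62 that fell, 49 and 30 were below 0, with medians of -0.07 and 0.0024. With vehicle, 27 and 11 of them reached an unadjusted p under 0.05; with lithium, 8 and 1 did. Over all 16606 genes that p was reached by 957 with vehicle and 887 with lithium. The genes were chosen by the fluoxetine contrast, and no test is drawn from these counts.

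Npas4 was at -0.38 ± 0.20 with vehicle, Nrarp at -0.25 ± 0.10, Nrn1 at 0.21 ± 0.081 and Calr at 0.07 ± 0.047, and none of these passed. The test of the difference between the fluoxetine and the vehicle effect called no gene by limma, and an unadjusted p under 0.05 was reached by 793. By edgeR the count was 0 and by DESeq2 2. The smallest p-values belonged to Star, the cholesterol carrier of steroid synthesis, at -0.80, to the noncoding RNA Gm15663 at 0.41 and to Csf2rb2 at -0.93 (limma adjusted p = 0.643, 0.643 and 0.964). For Npas4 this difference was -0.68 (limma adjusted p = 0.964). By limma, then, the effect under fluoxetine was not shown to differ from that with vehicle for any gene. Against lithium 1 gene passed (0.00602%). It was Gm15663 (ENSMUSG00000085282, chromosome 10, 105573953 to 105583874, plus strand), at 0.31 ± 0.067 under fluoxetine and -0.25 under lithium, a difference of 0.55 (limma adjusted p = 0.0131), which was not called without WT lithium male 3. This count was 130 without WT fluoxetine male 1, 4 without HT fluoxetine female 5, and 2 without HT fluoxetine female 4, HT lithium female 4 or WT lithium male 2.

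The median GC content of the transcripts was 46.3% for the genes that rose and 54.4% for those that fell, against 50.4% over all genes. Across 16595 genes the correlation of GC content with the log2 difference was -0.11 over both sexes, -0.16 in females and 0.0019 in males; genes are not independent replicates. With each library's trend on GC content and length removed, 200 genes were called, 160 higher and 40 lower in HT, of which 108 were among the 165. Nrarp, Mex3d, Npas4, Btg2, Efna5, Tbl1xr1 and Tbl1x kept their calls in that fit. Among the genes named, Ier2, Canx, Hspa8, Hsp90aa1, Dnaja2, Dnajb6, Prkar1a, Opcml, Kcnt1, Rab11fip1 and Socs3 lost theirs.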

How the data were processed

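RNA of prefrontal cortex was made into libraries with a TruSeq Stranded mRNA kit, per the labels' protocols. Salmon 0.11.2, R 3.6.0, DESeq2 1.19.11 and GRCm38 are named without roles in the submitters' processing notes. The deposited values are a signal: the authors scaled the read counts of each library by its size factor. This shows in the values, all of which (100.0%) are whole multiples of 1 step per library within 0.0001. The sources used here do not give the strand setting of the counting or the filter that left 18088 genes. GENCODE M21 matched 18077 of the gene IDs.

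The 16606 genes whose mean over all 58 libraries reached 10 were tested on log2(value + 1) with limma 3.58.1 (R 4.3.3; mean-variance trend, means of 12 groups of genotype, drug and sex, 46 residual degrees of freedom) and Benjamini-Hochberg adjustment at 0.05. Female and male differences were averaged. The sex difference and the differences from the vehicle and lithium effects were contrasts of the same fit. The text names Tbl1xr1, Tbl1x, Gm43672 and the corepressor list, the 15 largest rises and the 15 largest falls among called genes with a mean of at least 50, from each list the 3 members of smallest p, and the 3 genes with the smallest p of each difference between effects; some are not reported here, and other genes are said to have been named after their values were seen. The members and lists were chosen with earlier results of these data known. Recovered whole reads of 52 libraries were tested with edgeR 4.0.16 (17815 genes) and DESeq2 1.42.0. The other 6 libraries, WT fluoxetine female 4 among them, have a size factor close to 1 and were not passed to these tests. No 2 replicates agreed within sampling noise (lowest chi-square per gene 6.32). Scripts were tested on simulated data. Promoter windows (250 bases before to 50 after the start) and their sequences are from RefSeq, GRCm38.p6.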

Additional observations from a re-analysis of the deposited data

Results flagged for a closer look

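A library was listed where its gap to the nearest of the other 4 of its group and sex exceeded 0.71 of the whole range (Dixon's 95% value for 5 samples). This held for 26 of 304 such groups (8.553%), and chance alone gives about 5%. None of these was tested further.

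HT female 5 stood apart from the other HT females in 7 genes. It was high in Npas4 (835.1, others 289.7 to 346.5), Btg2 (453.7, others 247.2 to 300.5) and Nrarp (678.9, others 366.0 to 450.5), which fell in HT. It was low in Calr (8308.1, others 10578.6 to 11321.3), Hsph1 (7280.8, others 9458.9 to 10324.2), Tmem215 (265.6, others 342.4 to 364.1) and Rgs4 (21893.3, others 24925.7 to 25349.5). Its olfactory bulb marker sum was 11015, against 1266 to 13073 in the other HT females. HT female 3 was low in Socs3 (49.1, others 67.0 to 73.3).

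Among HT males, male 1 was high in the activity-induced genes Homer1 (11089.0, others 4827.2 to 6536.8), Arc (2076.5, others 615.6 to 1010.6) and Fos (766.4, others 188.8 to 279.8). HT male 3 was high in Dnaja2 (5072.7, others 4758.3 to 4826.3), and HT male 2 in summed olfactory bulb markers (16533.6, others 1334.0 to 4033.0).

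WT female 1 was high in summed striatal markers (16752.5, others 6146.5 to 6694.1), in summed unfolded protein response genes (65661.4, others 53831.4 to 55907.7), and in Calr (10030.5, others 7601.1 to 8111.5), Homer1 (7501.4, others 4638.0 to 5304.6), Hdac4 (2010.7, others 1618.3 to 1703.4) and Notch1 (1085.1, others 831.2 to 899.5). It was low in Gabra3 (4503.5, others 4864.4 to 4992.0) and Cdh10 (1474.2, others 1767.8 to 1819.0).

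WT male 1 was high in Calr (9448.7, others 7222.8 to 7815.8) and Hspa5 (9179.4, others 5590.9 to 6109.8) and low in Kcnt1 (3615.5, others 4457.6 to 4693.2). WT male 5 was high in Amotl2 (632.4, others 423.2 to 431.2), and WT male 3 in summed striatal markers (19620.4, others 5927.9 to 8231.6).

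The genotype effect differed between groups for 4 genes by limma. It differed between the sexes, females minus males, for Wdfy4 by -0.97, for Zfp760 by 0.48 and for Cdc42bpb by -0.27 (adjusted p = 0.018, 0.0394 and 0.0394), and these calls were lost without the libraries rich in olfactory bulb markers (adjusted p = 0.316, 0.384 and 0.384). It differed between fluoxetine and lithium for Gm15663 by 0.55 (adjusted p = 0.0131), a call lost by edgeR (adjusted p = 0.135).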

How the results depend on the processing

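All genes called under fluoxetine kept their direction in every fit that gave them a difference, but counts of calls moved, and the cause was not tested. List medians close to 0 changed sign: those of the astrocyte (-0.02 to 0.04), microglia (-0.02 to 0.05), deep-layer (-0.04 to 0.09) and interneuron markers (-0.01 to 0.09). That of the olfactory bulb markers (-1.38 to 0.06) did so with their own mean log2 value as a covariate. That of the striatal markers (-0.35 to 0.20) did so with theirs and without the striatum- or olfactory-rich libraries. The medians of the immediate early, Notch, unfolded protein response, heat shock, presynaptic and potassium channel lists kept their sign in the 19 other settings. With all 20 libraries 165 genes passed, and with 1 left out 26 to 1109 did. The count was 310 with median centring, 593 with array weights, 15 with the libraries of the comparison alone, 88 by edgeR, 394 by DESeq2 and 39 without the striatum-rich libraries; other settings gave 127 to 213. In females (248) it was 101, 1143, 0 and 2 with median centring, array weights, the compared libraries alone and edgeR. It was 28 with GC and length trends removed, 560 with the olfactory covariate, 699 without olfactory-rich libraries, 51 without striatum-rich libraries, 633 with both covariates, and 1 to 547 with 1 library left out. In males (4) it was 2 with a minimum mean of 50, 40 with array weights, 0 with the compared libraries alone, 130 by DESeq2, 2 with the olfactory covariate, 0 without olfactory-rich libraries, 2 with both covariates, and 3 to 107 with 1 library left out. The sex difference (3) had 1 call with median centring, 243 with array weights, 1 with the compared libraries alone and 32 by DESeq2. It had 0 by edgeR, 0 with GC and length trends removed, 0 with the olfactory covariate, 0 without olfactory-rich libraries, 0 without striatum-rich libraries, 0 with both covariates, and 0 to 48 with 1 library left out. The difference from the vehicle effect (0) had 2 calls by DESeq2 and 0 whichever library was left out. That from the lithium effect (1) had 40 with array weights, 0 with the compared libraries alone, 0 by edgeR, 6 by DESeq2, 4 with the olfactory covariate, 44 without olfactory-rich libraries, 2 without striatum-rich libraries, 3 with both covariates, and 0 to 130 with 1 library left out. With vehicle (3) there were 6 with array weights, 9 by DESeq2, 5 with GC and length trends removed, and 3 to 4 with 1 left out; with lithium (2) there were 4 with array weights, 4 by DESeq2, 4 with the olfactory covariate, 5 with both covariates, and 2 to 3 with 1 left out. Same-numbered HT and WT libraries correlated at -0.24 to 0.15, and 3 of 10 correlated best with their own number, so the numbers do not pair them; with the number as a replicate block 157 genes passed, 149 of them among the 165. Leaving out striatum- or olfactory-rich libraries and using both covariates were chosen after seeing the data. At 24655357 reads or more per library, depth limits the low-count genes, such as 1700016P03Rik and A630019I02Rik.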
